A study of Homo sapiens with 12 samples.

Results

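The genes described here encode the subunits of the mitochondrial respiratory chain that are carried by nuclear DNA, in RCC4 cells in which MESH1 was silenced. They were chosen by symbol alone (the NDUF, SDH, UQCR, COX and ATP5 families), which gave 91 of the 23710 gene symbols counted. Of these, 74 are subunits (36 of complex I, 4 of complex II, 8 of complex III, 11 of complex IV and 15 of complex V), 9 are paralog isoforms, 3 are relatives by symbol only and 5 are pseudogenes, readthrough or antisense genes. RCC4 is a clear cell renal carcinoma line. Cells received 40 pmol of siRNA and RNA was taken 72 h after transfection, in 2 experiments of 6 libraries each. In experiment 1, 3 biological replicates with siMESH1-CDS were set against 3 with a non-targeting siRNA (siNT). In experiment 2, 3 replicates with siMESH1-7002 were set against 3 siNT replicates of their own.

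The respiratory chain passes electrons from nutrients to oxygen across the inner mitochondrial membrane and uses the energy to make ATP. Complex I takes electrons from NADH through a peripheral arm, made of an NADH-oxidising N module and a quinone-binding Q module, and pumps protons with its membrane arm. Complex II oxidises succinate and is also an enzyme of the tricarboxylic acid cycle. Complex III hands electrons from ubiquinol to cytochrome c, complex IV passes them to oxygen, and complex V, the ATP synthase, lets protons back through its c ring to drive its catalytic F1 head. Complex II is wholly nuclear-encoded, while each of the others also holds subunits made from mitochondrial DNA, which were not analysed here. Clear cell renal carcinoma is known for low respiration and a reliance on glycolysis.

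The sites of the siRNAs are shown because both experiments rest on them. Both lie in HDDC3, the gene for MESH1, on the minus strand of chromosome 15 (GRCh38). The siMESH1-CDS site is coding sequence at chr15:90932064-90932082, in exon 2 of 4 annotated transcripts and exon 3 of another. The siMESH1-7002 site is at chr15:90931109-90931129, in the 3′UTR and the last exon of 4 transcripts. Capitals mark the bases that pair with guide positions 2 to 8, the seed.
siMESH1-CDS site: gggaatcactgACATTGTg
siMESH1-7002 site: ctgaaggtctcctGCTAACTa

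HDDC3 checked the labels. Levels are given in CPM (reads per 1000000 of the library size after TMM scaling). In experiment 1 the HDDC3 level was 8.23, 6.46 and 7.76 CPM in the siNT replicates and 0.158, 0 and 0.316 CPM with siMESH1-CDS. In experiment 2 it was 13.9, 13.1 and 12.7 CPM with siNT and 1.25, 1.18 and 1.72 CPM with siMESH1-7002. All 3 silenced libraries lay below all 3 siNT libraries each time. The log2 change was -5.56 with siMESH1-CDS (edgeR quasi-likelihood test, Benjamini-Hochberg adjusted p = 0.00174) and -3.25 with siMESH1-7002 (adjusted p = 2.51e-12). A two-sided exact permutation test gave p = 0.1 for each, the smallest that 3 against 3 libraries allow. After the GC correction described below, the log2 changes were -3.8 with siMESH1-CDS and -3.13 with siMESH1-7002. The difference between the changes was -2.47 (edgeR adjusted p = 0.0037), and -0.57 after that correction (edgeR adjusted p = 0.279).

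The siMESH1-CDS libraries stood apart from the others before any respiratory gene was considered. Reads in genes ranged from 34063155 to 49134129 per library in experiment 1 and from 24787804 to 31651125 in experiment 2. The coefficient of biological variation was 0.299 in experiment 1 and 0.049 in experiment 2. Reads outside genes made up 18.4 to 20.8% with siMESH1-CDS against 14.7 to 15.5% in its siNT libraries, and 10.2 to 12.2% against 10.0 to 11.2% in experiment 2. The 6 libraries of experiment 1 were run on lanes 4 to 7 and those of experiment 2 on lane 2. All 6 markers of RCC4 identity were detected, and 5 of them were lower with siMESH1-CDS (KRT18 -4.81, CA9 -3.0, KRT8 -2.95, PAX2 -1.57 and PAX8 -1.53 on the log2 scale). After the GC correction described next, KRT18 was still lower (-2.84), CA9 and KRT8 were not called, and PAX2 (1.86), PAX8 (0.42) and VIM (3.62, from -0.01) were higher. With siMESH1-7002 KRT18, KRT8 and VIM were lower, by -0.33, -0.17 and -0.18. Of 7 markers of other cell types, ALB, CD3E, HBB, PECAM1, PTPRC and VWF were not above the filter on low counts in either experiment, and CD68 changed by -3.94 (log2) with siMESH1-CDS and by 0.41 with siMESH1-7002. The part of these markers in the results below was not tested.

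With siMESH1-CDS the change of a gene followed the GC content of its transcripts, and the respiratory genes took part in that trend. Over all genes in 10 classes of GC content, the median log2 change went from 1.12 in the class of 31.9 to 40.0% GC to -3.60 in the class of 61.8 to 74.0% GC. With siMESH1-7002 the same classes went from 0.13 to -0.09. Among the 74 subunits the log2 change with siMESH1-CDS had a Pearson r of -0.73 and a Spearman rho of -0.81 with GC content, and with siMESH1-7002 an r of -0.36 and a rho of -0.34. These describe genes that share libraries and are not independent.

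The split was plain when the subunits were grouped by GC content. Of the 18 subunits under 45% GC, 13 were higher and 2 lower with siMESH1-CDS, with a median log2 change of 0.62. Of the 37 between 45 and 55% GC, 6 were higher and 19 lower, with a median of -0.41. Of the 19 over 55% GC none was higher and 16 were lower, with a median of -3.83. The 3 siMESH1-CDS replicates differed in how far this went, since the median of the GC-rich group was -3.24, -3.62 and -2.35 (log2(CPM + 1) against the siNT mean) in replicates 1, 2 and 3. With siMESH1-7002 the medians of these groups were -0.02, -0.11 and -0.17, with 2 higher and 3 lower, 1 higher and 14 lower, and 0 higher and 10 lower. Changes with siMESH1-CDS are therefore set beside their value after a GC correction, in which a smooth trend of log2 level on GC content was taken out of each library. After it, the correlation over the 74 subunits was r = -0.30 and rho = -0.54 with siMESH1-CDS and r = -0.10 and rho = 0.05 with siMESH1-7002, so a part of the trend was left in experiment 1.

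**Figure D1:**
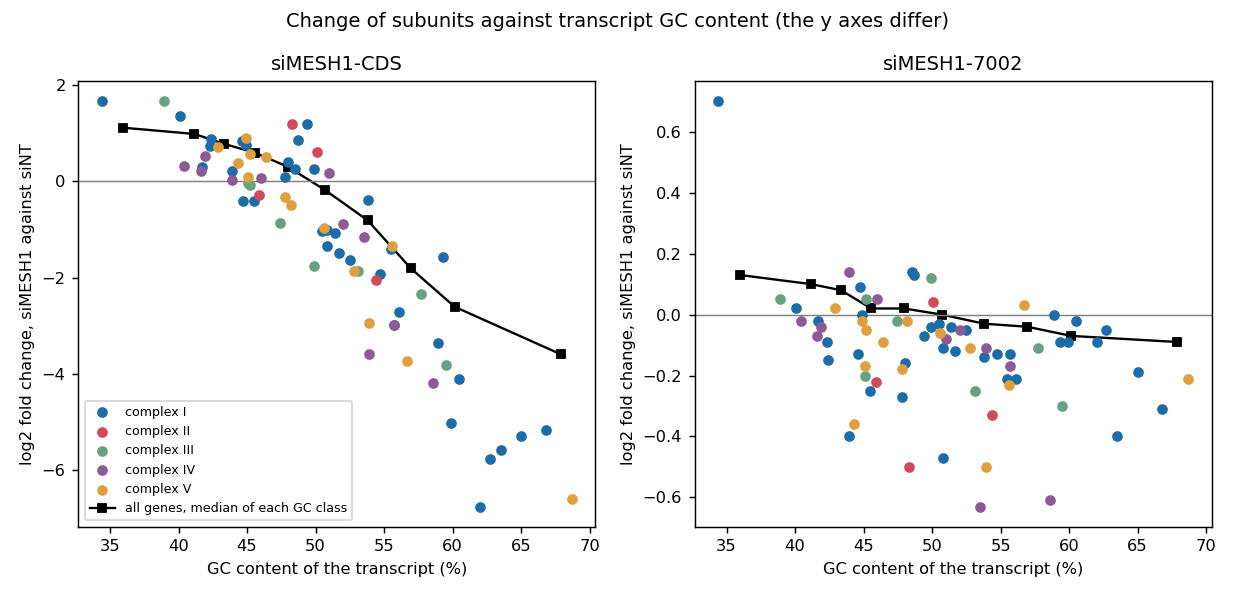
Log2 change of each respiratory subunit (points) against the GC content of its transcripts (%), for siMESH1-CDS and siMESH1-7002, with the median of all genes in each of 10 GC classes as black squares; the vertical scales differ and ATP5E, with no reads with siMESH1-CDS, is left out. The squares fall from 1.12 to -3.60 with siMESH1-CDS and from 0.13 to -0.09 with siMESH1-7002. With siMESH1-CDS the subunits fall too, and their class medians lie below the squares in all classes but that of lowest GC. With siMESH1-7002 their medians lie below the squares in every class.

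The siNT libraries of the 2 experiments differed in the same genes. The level of a subunit in the siNT libraries of experiment 2, as a ratio to that in experiment 1, had a median of 0.887 under 45% GC, of 1.09 between 45 and 55% and of 2.24 over 55%. In the GC-rich group 13 of 19 ratios were above 2, and the largest was 37.0 for NDUFS7. ATP5D, the delta subunit of the F1 head, stood at 7.87 ± 0.64 CPM (SD, n = 3) in one set of siNT libraries and at 129 ± 9.3 CPM in the other. Both sets are labelled as non-targeting siRNA controls, and the experiment and its sequencing cannot be told apart between them.

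Most respiratory subunits that changed were lower with either siRNA, by large amounts with siMESH1-CDS and by small ones with siMESH1-7002. With siMESH1-CDS 19 of 74 subunits were higher, 37 lower and 18 not called at an adjusted p under 0.05, where 36.9% of all 13395 genes tested were called higher and 37.2% lower. After the GC correction 13 subunits were higher and 37 lower, against a background of 39.9% and 26.8%. With siMESH1-7002 3 subunits were higher, 27 lower and 44 not called, against 26.6% higher and 26.7% lower of 13568 genes. After the GC correction that became 10 higher and 21 lower, against 38.8% and 23.6%. The lower calls took a larger share of the subunits than of all genes in each of these fits. In bulk RNA, fewer cells of a type and less RNA per cell cannot be told apart.

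The number of calls among these genes changed when single libraries were left out. Shares over all genes in those fits are not given here, so whether this was particular to the respiratory genes was not tested. Of the 91 genes, 81 passed the filter on low counts in each experiment and 10 did not, and all 74 subunits passed. Among those 81, 21 were higher and 39 lower with siMESH1-CDS, and 5 were higher and 27 lower with siMESH1-7002. Without siMESH1-CDS replicate 1 the 39 lower became 23. Without siNT replicate 3 of experiment 2 the 27 lower became 41, and without siNT replicate 1, siMESH1-7002 replicate 1 or siMESH1-7002 replicate 2 the 5 higher became 3. With all 12 libraries in 1 model, which lends experiment 2 the spread of experiment 1, the siMESH1-7002 calls were 1 higher and 5 lower. Of all 14154 genes tested, that model called 1138 higher and 1444 lower, so there the lower calls took no larger share of the members.

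The changes were larger with siMESH1-CDS than with siMESH1-7002. The median log2 change of the 81 genes was -0.48 with siMESH1-CDS, where that of all genes was -0.05. Scaling by library size alone moved these medians to -0.74 and -0.31, and the GC correction to -0.51 and 0.16, so relative to all genes the respiratory genes lay at -0.43 as fitted, -0.43 by library size and -0.67 after the GC correction. With siMESH1-7002 their median was -0.09 where that of all genes was 0.01. In 64 of 74 subunits the siMESH1-CDS replicates did not overlap the siNT replicates, where 82.7% of all genes did not. With siMESH1-7002 the groups did not overlap in 38 of 74 subunits, where 59.5% of all genes did not.

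**Figure D2:**
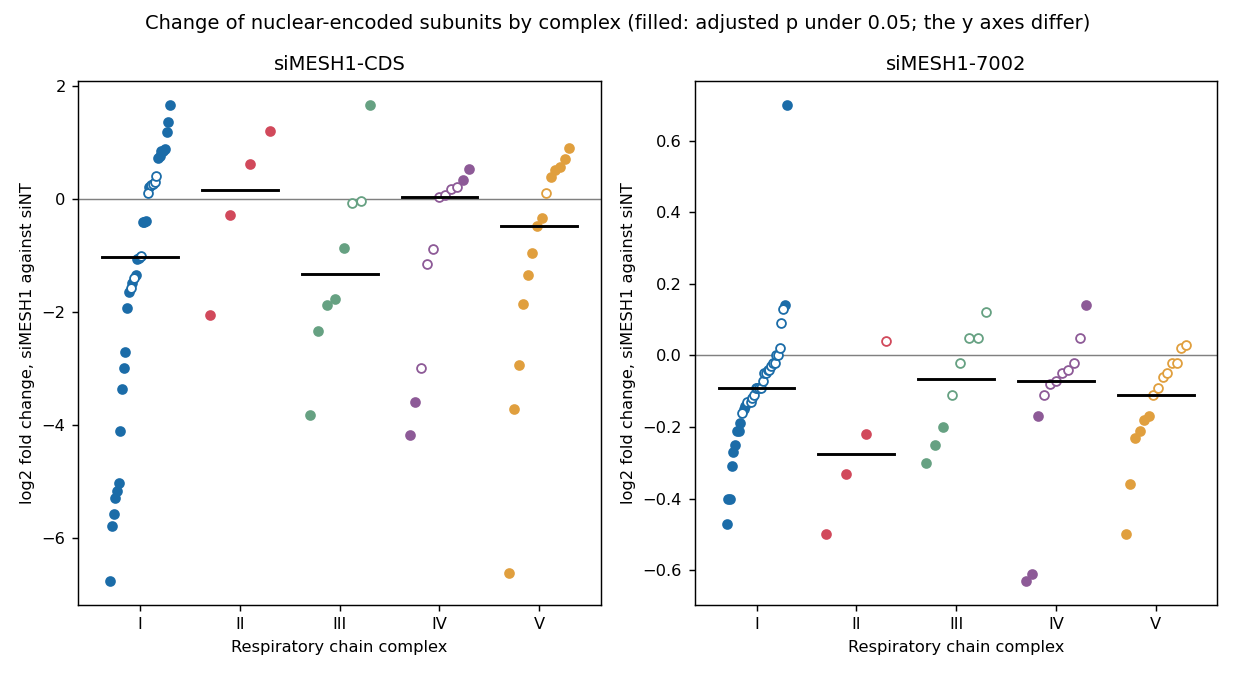
Log2 change of each subunit against siNT by complex (I to V), for siMESH1-CDS and siMESH1-7002; filled points have an adjusted p under 0.05, black bars mark the median, the vertical scales differ, and ATP5E is left out of the points but counted in the median. With siMESH1-CDS the subunits of complex I spread from -6.77 to 1.67, while with siMESH1-7002 NDUFA5 at 0.70 stands above the rest.

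Complex I had more subunits lower than higher in both experiments. With siMESH1-CDS 9 of its 36 subunits were higher, 19 lower and 8 not called, with a median log2 change of -1.02. The medians of the 3 siMESH1-CDS replicates against the siNT mean were -0.98, -1.32 and -0.50 on the log2(CPM + 1) scale. After the GC correction 8 were higher and 16 lower, with a median of -0.70. With siMESH1-7002 2 were higher, 12 lower and 22 not called, with a median of -0.09, and its 3 replicates lay at -0.08, -0.08 and -0.12. The GC correction made that 5 higher and 8 lower of 36, with a median of -0.02, so the lower calls were no larger a share than in all genes. For this and the other complexes, the shares of all genes were 36.9% higher and 37.2% lower with siMESH1-CDS, and 26.6% and 26.7% with siMESH1-7002. After the GC correction they were 39.9% and 26.8%, and 38.8% and 23.6%.

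NDUFA5, a small supernumerary subunit of the Q module, was the only subunit called higher with both siRNAs in the fits as described. In experiment 1 its level was 45.8, 47.0 and 46.4 CPM with siNT and 142, 193 and 107 CPM with siMESH1-CDS. In experiment 2 it was 33.7, 33.4 and 42.6 CPM with siNT and 57.9, 61.7 and 59.0 CPM with siMESH1-7002. All 6 silenced libraries lay above all 6 siNT libraries. The log2 change was 1.67 (SE 0.219, edgeR adjusted p = 0.00117) with siMESH1-CDS, or 0.78 after the GC correction, and 0.70 (SE 0.0779, edgeR adjusted p = 1.05e-06) with siMESH1-7002, or again 0.70 after the correction. The rise was larger with siMESH1-CDS by 0.81 (SE 0.253, edgeR adjusted p of the difference 0.015), but after the GC correction the difference was -0.04 (edgeR adjusted p = 0.701). NDUFA5 had the lowest GC content of the subunits, 34.4%, and its 12 named pseudogenes could share its reads.

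In the core of the Q module, which holds the last iron-sulfur clusters before the quinone, NDUFS7 and NDUFS8 were lower in both experiments. NDUFS7, named after its values were seen, changed by -5.17 with siMESH1-CDS, or -1.35 and not called after the GC correction, and by -0.31 with siMESH1-7002. NDUFS8 was at 15.7, 11.3 and 15.1 CPM with siNT and at 0.0949, 0.026 and 0.748 CPM with siMESH1-CDS, where 1 to 26 reads per library were left. In experiment 2 it was at 72.8, 71.6 and 62.2 CPM with siNT and at 52.6, 53.6 and 50.4 CPM with siMESH1-7002. The groups were separate in both, and the log2 change was -5.59 (SE 0.999, edgeR adjusted p = 0.00346, -2.36 after the GC correction) and -0.40 (SE 0.0624, edgeR adjusted p = 4.46e-05). The change with siMESH1-CDS was the lower by 5.34 (log2 difference -5.34, edgeR adjusted p = 0.000108). NDUFS3, at 21.2, 7.18 and 38.6 CPM with siMESH1-CDS and 57.9 to 59.9 CPM with siNT, was not called there (edgeR adjusted p = 0.0606), and its value of -1.40 became -0.07 after the GC correction.

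The core of the N module, which binds NADH and the flavin, did not move together. Its 3 subunits, shown here after their values were seen, split 2 higher and 1 lower with siMESH1-CDS. NDUFS1, which carries the most iron-sulfur clusters, was at 135, 134 and 136 CPM with siNT and at 162, 149 and 161 CPM with siMESH1-CDS, and at 87.7, 89.5 and 92.0 CPM with siNT and 68.0, 72.2 and 64.3 CPM with siMESH1-7002. It rose by 0.22 (SE 0.0766, edgeR adjusted p = 0.0379) with siMESH1-CDS, which became -0.35 after the GC correction and -0.04 when scaled by library size alone, and fell by 0.40 with siMESH1-7002 (edgeR adjusted p = 1.02e-05). The call of its rise was lost when any one library other than siMESH1-CDS replicate 2 was left out, with values of 0.19 to 0.22. NDUFV1, which holds the flavin, was at 1.77, 0.234 and 7.65 CPM with siMESH1-CDS against 50.8 to 59.3 CPM with siNT (log2 change -4.11, edgeR adjusted p = 0.0155, -1.67 after the GC correction) and changed by -0.02 with siMESH1-7002. NDUFV2 was higher with siMESH1-CDS by 0.77, or 0.29 after the GC correction, and had a log2 change of 0.00 with siMESH1-7002.

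The supernumerary subunits of the peripheral arm were mixed. NDUFS6, which lies beside the N module, was at 27.9, 23.0 and 30.5 CPM with siNT and at 5.06, 2.68 and 4.69 CPM with siMESH1-CDS, a log2 change of -2.71 (edgeR adjusted p = 0.000656, -0.96 after the GC correction). It was also lower with siMESH1-7002, at 51.4, 51.1 and 49.8 CPM against 58.9, 60.4 and 57.4 CPM, by -0.21 (edgeR adjusted p = 0.00231). NDUFA9, a Q module subunit that binds NADPH, was lower with both siRNAs. Its level was 133, 125 and 129.5 CPM with siNT and 100.4, 88.7 and 103 CPM with siMESH1-CDS, and 69.0, 72.3 and 71.7 CPM with siNT and 59.4, 58.8 and 61.1 CPM with siMESH1-7002. Its log2 change was -0.41 (edgeR adjusted p = 0.00831, -0.83 after the GC correction) and -0.25 (edgeR adjusted p = 0.000555), and the difference was -0.31 (edgeR adjusted p = 0.0216). NDUFV3, an N module subunit, fell by 0.47 with siMESH1-7002, from 44.3 to 46.2 CPM down to 31.1 to 33.4 CPM (edgeR adjusted p = 3.31e-06). With siMESH1-CDS it was at 15.8, 7.85 and 31.6 CPM against 36.8 to 37.2 CPM, and the change of -1.01, or -0.75 after the GC correction, was not called (edgeR adjusted p = 0.0996) unless replicate 3 was left out, which gave -1.66.

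The membrane arm held the largest fall of complex I with siMESH1-CDS and few calls with siMESH1-7002. Of its 20 nuclear-encoded subunits, 4 were higher and 11 lower with siMESH1-CDS, with a median of -0.72, and 1 was higher and 3 lower with siMESH1-7002, with a median of -0.06. The GC correction gave 5 higher and 8 lower with siMESH1-CDS and turned the siMESH1-7002 calls to 3 higher (NDUFB11, NDUFC2 and NDUFS5) and 0 lower, with a median of 0.03. NDUFA13, also known as GRIM-19, was at 44.2, 30.0 and 36.9 CPM with siNT and at 0.158, 0.052 and 0.805 CPM with siMESH1-CDS, a log2 change of -6.77 (SE 0.903, edgeR adjusted p = 0.00124) or -3.77 after the GC correction. NDUFA11 changed by -5.79 and, after the correction, by -2.62. These are GC-rich genes, and with siMESH1-7002 their groups overlapped, with changes of -0.09 and -0.05. NDUFB5 and NDUFC1 went the other way. NDUFB5 was at 55, 59.4 and 57.1 CPM with siNT and at 149, 191 and 101 CPM with siMESH1-CDS (log2 change 1.36, edgeR adjusted p = 0.00285, 0.54 after the GC correction). NDUFC1 was at 16.6, 19.1 and 20.2 CPM and at 45.6, 50.7 and 30.8 CPM, and its rise of 1.19 was 1.28 after the correction. With siMESH1-7002 NDUFS5 was the one membrane-arm subunit that rose, by 0.14 (edgeR adjusted p = 0.0227), a call lost without siNT replicate 1 (0.12) or siMESH1-7002 replicate 1 (0.13) or 2 (0.12).

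Complex II was divided with siMESH1-CDS between its catalytic part and its membrane anchor. SDHA and SDHB, the flavoprotein and the iron-sulfur subunit that oxidise succinate, were lower, and SDHC and SDHD, which anchor them and bind heme and quinone, were higher. The 4 directions were kept after the GC correction. With siMESH1-7002 SDHA, SDHB and SDHD were lower and SDHC was not called. After the GC correction SDHC was called higher there (0.11), and the other 3 stayed lower. The median of the 4 genes was 0.17 with siMESH1-CDS, but it lay between genes of opposite sign and became -0.10 when scaled by library size alone. With siMESH1-7002 it was -0.27, with replicates at -0.27, -0.22 and -0.32.

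SDHA stood at 136, 119 and 128 CPM with siNT and at 25.1, 16 and 51.5 CPM with siMESH1-CDS. It stood at 140.3, 147 and 141 CPM with siNT and at 113, 115 and 113 CPM with siMESH1-7002. The silenced libraries were the lower in both, by -2.05 (SE 0.427, edgeR adjusted p = 0.00615, -0.95 after the GC correction) and by -0.33 (SE 0.0452, edgeR adjusted p = 1.23e-05). SDHB was at 63.2, 58.8 and 64.8 CPM against 54.1, 50.4 and 48.7 CPM in experiment 1 and at 44.8, 43.5 and 41.4 CPM against 37.3, 39.7 and 34.7 CPM in experiment 2. It changed by -0.29 (edgeR adjusted p = 0.037, -0.67 after the GC correction) and by -0.22 (edgeR adjusted p = 0.00822), and the difference of -0.22 was not called (SE 0.116, edgeR adjusted p = 0.111). The call in experiment 1 was lost without any one library except siMESH1-CDS replicate 2, with values of -0.33 to -0.26, and that in experiment 2 without siMESH1-7002 replicate 3 (-0.17).

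SDHD was the complex II gene in which the siRNAs were opposed. It was at 63.9, 63.7 and 60.9 CPM with siNT and at 135, 177 and 119 CPM with siMESH1-CDS, while it was at 30.0, 30.1 and 35.9 CPM with siNT and at 23.1, 22.6 and 22.4 CPM with siMESH1-7002. It rose by 1.20 (SE 0.16, edgeR adjusted p = 0.00126) in experiment 1 and fell by 0.50 (SE 0.0742, edgeR adjusted p = 2.87e-05) in experiment 2. The difference was 1.54 (SE 0.188, edgeR adjusted p = 5.96e-05), and 1.50 after the GC correction. SDHC was at 67.3, 72.7 and 67.0 CPM with siNT and at 107, 105 and 106 CPM with siMESH1-CDS, a rise of 0.62 (edgeR adjusted p = 0.00122, 0.83 after the GC correction). With siMESH1-7002 its libraries, 88.6, 82.9 and 81.4 CPM, overlapped those with siNT, 76.5, 85.6 and 83.8 CPM.

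**Figure D3:**
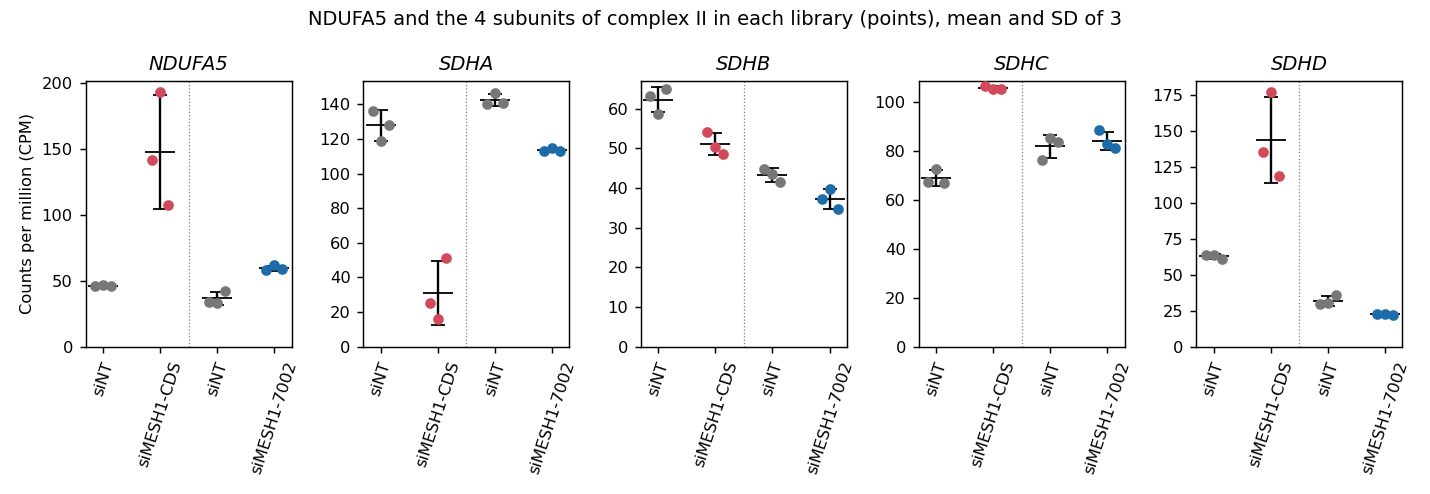
Level in CPM of NDUFA5 and the 4 complex II genes in each library (points), by experiment and siRNA, with the mean and SD of 3 libraries. NDUFA5 lies higher with both siRNAs, SDHA and SDHB lower with both, and SDHD higher with siMESH1-CDS (119 to 177 CPM) but lower with siMESH1-7002 (22.4 to 23.1 CPM).

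Most of complex III was lower with siMESH1-CDS. Of its 8 nuclear-encoded subunits under the symbol rule 1 was higher, 5 lower and 2 not called, with a median of -1.32 and replicate medians of -1.32, -1.52 and -1.0. The GC correction left these counts and moved the median to -0.76. With siMESH1-7002 none was higher and 3 were lower, with a median of -0.07, which the correction turned into 2 higher (UQCR10 and UQCRC2) and 3 lower with a median of 0.02. UQCRB, a small subunit near the quinone site and the one that rose, was at 50.6, 60.4 and 59.2 CPM with siNT and at 196, 204 and 143 CPM with siMESH1-CDS. Its log2 change was 1.67 (SE 0.166, edgeR adjusted p = 0.000532), or 0.85 after the GC correction, and with siMESH1-7002 it was 0.05 with overlapping groups.

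The subunits of complex III that fell with both siRNAs were UQCRC1 and UQCRQ. UQCRC1, a large core protein, was at 105, 86.6 and 98.9 CPM with siNT and at 4.74, 0.936 and 14.7 CPM with siMESH1-CDS (log2 change -3.83, edgeR adjusted p = 0.0107, -1.53 after the GC correction). In experiment 2 it was at 149, 146 and 135 CPM with siNT and at 117, 118 and 113 CPM with siMESH1-7002 (log2 change -0.30, edgeR adjusted p = 6.98e-05). UQCRQ, a small subunit, changed by -1.87 (-1.01 after the GC correction) and by -0.25, in libraries that did not overlap. UQCRC2, the partner of UQCRC1 in the core, was named after its values were seen; its groups overlapped in both experiments, with changes of -0.07 and 0.05 that were not called, but after the GC correction it was called lower with siMESH1-CDS (-0.51) and higher with siMESH1-7002 (0.08). The Rieske iron-sulfur protein UQCRFS1 was at 127, 65.0 and 149 CPM with siMESH1-CDS against 114, 119 and 118 CPM with siNT. It was not called there (log2 change -0.04, edgeR adjusted p = 0.898) and stood at 0.25 without siMESH1-CDS replicate 2, while it fell by 0.20 with siMESH1-7002 (edgeR adjusted p = 0.00261). UQCR11 fell by 2.34 with siMESH1-CDS, but its change was -0.10 and not called after the GC correction.

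Complex IV had the fewest calls for its size with siMESH1-CDS. With siMESH1-CDS 2 of 11 subunits were higher, 2 lower and 7 not called, and the median of 0.03 was below 0 under DESeq2, under its size factors, by library size alone and after the GC correction (-0.46, with 1 higher and 5 lower). With siMESH1-7002 1 was higher and 3 lower, with a median of -0.07, where 26.6% and 26.7% of all genes were. The GC correction made that 1 higher and 2 lower, with a median of -0.06. COX4I1, the regulatory subunit that binds ATP, was at 231, 207 and 222 CPM with siNT and at 13.6, 3.51 and 37.3 CPM with siMESH1-CDS. Its log2 change was -3.60 (SE 0.817, edgeR adjusted p = 0.00849), or -2.76 after the GC correction, and with siMESH1-7002 it was -0.11 and not called (edgeR adjusted p = 0.0548).

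COX8A, a small membrane subunit, was lower with both siRNAs. It was at 56.9, 49.9 and 59.5 CPM with siNT and at 2.18, 0.754 and 6.16 CPM with siMESH1-CDS, and at 115, 122 and 107 CPM with siNT and 78.0, 74.9 and 71.8 CPM with siMESH1-7002. The log2 change was -4.19 (SE 0.754, edgeR adjusted p = 0.00353, -2.03 after the GC correction) and -0.61 (SE 0.0562, edgeR adjusted p = 1.08e-07). COX6A1 was the subunit with the largest fall with siMESH1-7002, by 0.63, from 107, 108 and 96.6 CPM to 65.8, 68.7 and 66.3 CPM (edgeR adjusted p = 4.67e-08). With siMESH1-CDS its libraries were far apart, at 23.8, 7.05 and 51.9 CPM against 59.7 to 63.3 CPM, and the change of -1.15, or -0.38 after the GC correction, was not called (edgeR adjusted p = 0.151) unless replicate 3 was left out (-2.01).

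The remaining complex IV genes showed how far the siMESH1-CDS replicates could differ. COX6B1, which bridges the dimer, was at 110.3, 114 and 119.6 CPM with siNT and at 5.03, 0.806 and 37.6 CPM with siMESH1-CDS. The groups were separate, yet the change of -2.99, or -1.87 after the GC correction, was not called (SE 1.23, edgeR adjusted p = 0.066), and it was called without replicate 2 (-2.41) or replicate 3 (-5.34). With siMESH1-7002 it fell by 0.17 (edgeR adjusted p = 0.0136), a call lost without siNT replicate 2 (-0.13) or siMESH1-7002 replicate 3 (-0.16) and after the GC correction (-0.06). COX7B and NDUFA4 rose with siMESH1-CDS by 0.53 (edgeR adjusted p = 0.00562) and 0.33 (edgeR adjusted p = 0.0453), but lay at -0.17 and -0.46 after the GC correction, and the call of NDUFA4 was lost without any one library except siMESH1-CDS replicate 3 (0.27 to 0.34). COX6C rose by 0.14 with siMESH1-7002 (edgeR adjusted p = 0.0358), a call lost without siNT replicate 1 or any siMESH1-7002 replicate, with values of 0.12 to 0.15.

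The isoforms that replace complex IV subunits in other tissues were close to absent. COX4I2, COX7A1 and COX7B2 had 0 reads in all 12 libraries, which allows up to 3 reads in each, and COX6A2, COX6B2 and COX8C had at most 10, 2 and 4 reads in a library. NDUFA4L2, a relative of NDUFA4 known to be induced by hypoxia-inducible factor, was the exception. Per kilobase of transcript it stood at 23.5 ± 3.77 CPM (SD, n = 3) with siNT in experiment 1 and at 851 ± 38.7 in experiment 2, where NDUFA4 stood at 65.9 ± 1.38 and 77.1 ± 2.57. NDUFA4L2 was thus below NDUFA4 in the one set of siNT libraries and above it in the other. Its level was 31.9, 23.1 and 27.9 CPM with siNT and 0.443, 0.078 and 1.35 CPM with siMESH1-CDS, but 1035, 1022 and 950.1 CPM with siNT and 1160.0, 1105 and 1114 CPM with siMESH1-7002. Its log2 change was -5.47 (edgeR adjusted p = 0.00256, -2.32 after the GC correction) and 0.17 (edgeR adjusted p = 0.0033).

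The other genes of the symbol rule are no subunits of the usual complexes. UQCRHL, a copy of UQCRH, changed by -1.40 (-1.68 after the GC correction) and -0.18 and was called in neither experiment, and ATP5L2 passed the filter in experiment 2 alone (-0.08, not called). COX7A2L, which takes part in joining complexes III and IV, rose by 0.25 with siMESH1-7002 (edgeR adjusted p = 0.000525) and changed by -0.02 with siMESH1-CDS, which was -0.63 and called lower after the GC correction (edgeR adjusted p = 0.012). ATP5S rose by 0.86 with siMESH1-CDS, or 0.87 after the GC correction, and ATP5SL fell by 1.63 but lay at 0.14, not called, after it. Neither was called with siMESH1-7002. NDUFB2-AS1, whose reads depend on the strand option, was called in neither experiment as fitted, but was called higher with siMESH1-CDS after the GC correction. ATP5J2-PTCD1, NDUFC2-KCTD14 and UQCRBP1 did not pass the filter.

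Complex V had calls in both directions with siMESH1-CDS, in all its subunits but ATP5L. Of the 15 subunits 5 were higher and 9 lower, with a median of -0.48 and replicate medians of -0.53, -0.69 and -0.26. After the GC correction 1 was higher and 9 lower, with a median of -0.50. With siMESH1-7002 none was higher, 6 were lower and 9 not called, with a median of -0.11 and replicate medians of -0.09, -0.07 and -0.15. The GC correction made that 1 higher and 5 lower, with a median of -0.04.

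In the F1 head 4 of 5 subunits were lower with siMESH1-CDS and 1 of 5 with siMESH1-7002. The alpha and beta subunits that form the catalytic sites, ATP5A1 and ATP5B, changed by -0.48 and -0.96 with siMESH1-CDS, or -0.61 and -0.72 after the GC correction, and by -0.02 and -0.06, not called, with siMESH1-7002. They are given here after their values were seen. ATP5C1, the gamma subunit of the rotating stalk, was at 175, 174 and 181 CPM with siNT and at 304, 320.4 and 243 CPM with siMESH1-CDS. It rose by 0.71 (edgeR adjusted p = 0.00284), but only by 0.05, not called, after the GC correction. ATP5D, the delta subunit and the most GC-rich of the genes at 68.7%, was at 8.27, 7.13 and 8.21 CPM with siNT and at 0.0633, 0.026 and 0.144 CPM, or 1 to 5 reads, with siMESH1-CDS. Its log2 change was -6.62 (SE 0.475, edgeR adjusted p = 0.000283), -2.46 after the GC correction, and -0.21 with siMESH1-7002 (edgeR adjusted p = 0.0044), which was -0.04 and not called after the correction.

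ATP5E, the epsilon subunit, was not seen at all with siMESH1-CDS. It had 240 reads over the 3 siNT libraries of experiment 1 (1.56, 1.86 and 1.57 CPM) and 0 in each siMESH1-CDS library. Against a floor of 3 reads per library it was at least 19.2-fold lower, and its fitted log2 change of -9.11 rests on the prior count and is no bound. At 38.7% GC it went against the trend of the GC-poor subunits. With siMESH1-7002 it was at 1.77, 2.47 and 2.01 CPM against 2.17, 3.34 and 2.23 CPM with siNT, and was not called (edgeR adjusted p = 0.212). Its processed pseudogene ATP5EP2, with which it can share reads, was at 2.33, 2.15 and 1.96 CPM with siNT and at 2.88, 4.21 and 3.39 CPM with siMESH1-CDS (log2 change 0.71, edgeR adjusted p = 0.0259, 0.05 after the GC correction).

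The c ring and the peripheral stalk were opposed with siMESH1-CDS. The 3 genes of the c ring, which encode the same mature proton-carrying protein, were all lower, with a median of -2.95, and 2 of them were lower with siMESH1-7002. ATP5G1 was at 67.5, 59.8 and 64.2 CPM with siNT and at 7.27, 1.38 and 16.1 CPM with siMESH1-CDS, and at 37.4, 38.9 and 36.6 CPM with siNT and 26.8, 27.3 and 25.5 CPM with siMESH1-7002. It changed by -2.95 (SE 0.804, edgeR adjusted p = 0.0167, -2.09 after the GC correction) and by -0.50 (SE 0.0606, edgeR adjusted p = 2.65e-06), and the call in experiment 1 was lost without siMESH1-CDS replicate 1 (-2.86). ATP5G2 changed by -3.73 with siMESH1-CDS (edgeR adjusted p = 0.0213, -2.28 after the GC correction), a call lost without siNT replicate 1 (-3.71) or 2 (-3.74) or siMESH1-CDS replicate 1 (-3.30), and by 0.03 with siMESH1-7002, which was 0.15 and called after the correction. ATP5G3 changed by -0.33 (edgeR adjusted p = 0.0387, -0.50 after the GC correction) and -0.18 (edgeR adjusted p = 0.00291), and its call in experiment 1 was lost without any siNT library (-0.35 to -0.32) or siMESH1-CDS replicate 1 (-0.35). ATP5G1 and ATP5G2 have 7 and 3 named pseudogenes, which could share their reads.

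The 4 subunits of the peripheral stalk, which holds the F1 head still, were all higher with siMESH1-CDS, with a median of 0.54. Only ATP5J of the 4 was still higher after the GC correction, with a median of 0.15. ATP5J was at 81.4, 90.1 and 86.1 CPM with siNT and at 170.4, 188 and 127 CPM with siMESH1-CDS, a rise of 0.91 (edgeR adjusted p = 0.00311, 0.42 after the GC correction). ATP5H rose by 0.57 and lay at 0.12, not called, after the correction. ATP5F1 was opposed between the siRNAs, at 289.9, 257 and 268 CPM against 212, 203 and 209 CPM with siMESH1-CDS and at 124, 124 and 122 CPM against 154, 158 and 161 CPM with siMESH1-7002. It rose by 0.39 (edgeR adjusted p = 0.00635), which was -0.15 and not called after the GC correction, and fell by 0.36 (edgeR adjusted p = 3.98e-06). ATP5I, a small subunit of the membrane part, fell by 1.35 with siMESH1-CDS (edgeR adjusted p = 0.0308), a call lost without any siNT library or siMESH1-CDS replicate 1 (-1.43 to -1.31), and lay at 0.11 after the GC correction.

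Set side by side, the siRNAs shared 17 calls of the same direction among the 74 subunits. The 16 lower with both came from all 5 complexes: NDUFA1, NDUFA9, NDUFB7, NDUFB8, NDUFS6, NDUFS7 and NDUFS8; SDHA and SDHB; UQCRC1 and UQCRQ; COX8A; and ATP5D, ATP5G1, ATP5G3 and ATP5I. Of the 12824 genes tested in both experiments 15.1% were lower with both and 15.5% higher with both. NDUFA5 was the 1 subunit higher with both. ATP5F1, NDUFS1, NDUFS4 and SDHD were higher with siMESH1-CDS and lower with siMESH1-7002, a pattern of 5.93% of all genes, and no subunit had the reverse, a pattern of 5.65%.

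The shared calls were partly other genes once GC content was corrected for. Lower with both were 12 subunits, against 10.5% of all genes: NDUFA9, NDUFS1, NDUFS6, NDUFS8, SDHA, SDHB, UQCRC1, UQCRQ, COX8A, ATP5G1, ATP5G3 and ATP5L. Higher with both were 3 subunits, NDUFA5, NDUFC2 and SDHC, against 21.3%. SDHD was then the 1 subunit higher with siMESH1-CDS and lower with siMESH1-7002, against 6.73%. The 5 subunits ATP5G2, COX6C, NDUFV1, UQCR10 and UQCRC2 had the reverse, against 7.02%. Of the 37 subunits lower with siMESH1-CDS as fitted, 31 stayed lower, 5 lost the call and NDUFA1 turned from -0.39 to 0.71. Of the 19 that were higher, 10 stayed higher, 7 lost the call, and NDUFA4 and NDUFS1 were called lower. Of the 27 lower with siMESH1-7002, 21 stayed lower and 6 lost the call.

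The difference between the changes with the 2 siRNAs was called in the subunits about as often as in all genes. In 17 of 74 the change with siMESH1-CDS was the higher and in 35 the lower, against 30.0% and 39.7% of 14154 genes tested. By complex the change with siMESH1-CDS was higher in 8 and lower in 19 subunits of complex I, 2 and 1 of complex II, 1 and 5 of complex III, 1 and 2 of complex IV, and 5 and 8 of complex V. NDUFA13 differed by -6.83 (edgeR adjusted p = 1.38e-05) and UQCRB by 1.47 (edgeR adjusted p = 7.69e-05). The sequence of the siRNA, the experiment and its siNT libraries cannot be told apart in this contrast.

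**Figure D4:**
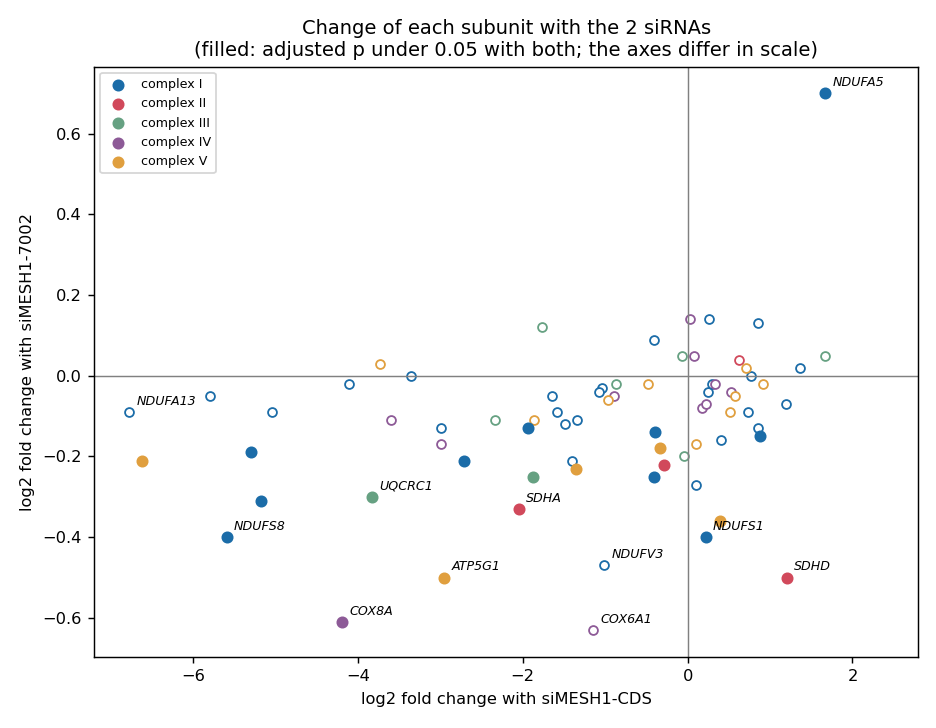
Log2 change with siMESH1-7002 against that with siMESH1-CDS for the subunits, coloured by complex, with filled points for those called with both siRNAs; the axes differ in scale and ATP5E is left out. The 16 subunits lower with both lie at the lower left, NDUFA5 is the one filled point at the upper right, and SDHD is among 4 filled points at the lower right.

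Matches to the seeds of the siRNAs were looked for in the longest annotated 3′UTR of each gene, on the sense strand, since an siRNA can act on other transcripts through its seed. ACATTGT, the match of siMESH1-CDS, stood in 9 of 88 respiratory genes (10.2%), against 14.4% of 18611 genes. They were NDUFA5, SDHC, UQCRB and ATP5S, which were higher with siMESH1-CDS, NDUFA9, NDUFA10, ATP5E and ATP5G3, which were lower, and COX7C, which was not called. GCTAACT, the match of siMESH1-7002, stood in 5 of 88 (5.68%), against 5.66% of all genes. They were NDUFS1 and NDUFV3, which were lower with siMESH1-7002, and COX4I1, NDUFA4 and NDUFB5, which were not called. The sites in NDUFA5, NDUFS1 and NDUFV3 are shown, chosen after their values were seen, in the frame of the siRNA sites with the seed match in capitals (GRCh38). A match is a description of the letters, and what it does in these cells was not tested.
NDUFA5, siMESH1-CDS seed, chr7:123541429-123541447, minus strand, exon 5 of 5: caaattagaatACATTGTa
NDUFS1, siMESH1-7002 seed, chr2:206119194-206119214, minus strand, exon 19 of 19: aaatgccccatgtGCTAACTg
NDUFV3, siMESH1-7002 seed, chr21:42909291-42909311, plus strand, exon 3 of 3: accaccaggtccaGCTAACTt

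Subunits and carriers that the symbol rule leaves out were few. Of 12 such genes 6 had a symbol in the files, and 1 was higher and 1 lower with siMESH1-CDS, where 36.9% and 37.2% of all genes were. CYC1, the cytochrome c1 of complex III, was at 75.0, 61.9 and 72.8 CPM with siNT and at 0.411, 0.156 and 2.70 CPM with siMESH1-CDS, a change of -6.00 (edgeR adjusted p = 0.00299, -3.15 after the GC correction). USMG5, a small subunit of the ATP synthase, rose by 0.83 with siMESH1-CDS, or 0.25 after the GC correction. With siMESH1-7002 1 was higher and 3 lower, where 26.6% and 26.7% of all genes were. NDUFAB1, the acyl carrier protein that is also a complex I subunit, rose by 0.17 (edgeR adjusted p = 0.0275), and CYCS, cytochrome c itself, fell by 0.36, from 75.4, 79.9 and 85.3 CPM to 60.9, 65.4 and 61.6 CPM (edgeR adjusted p = 5.57e-05). None of the 13 genes of mitochondrial DNA that encode subunits had a symbol in the files, and they were not analysed here.

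Assembly factors were called in both directions, with siMESH1-CDS in shares near those of all genes (36.9% higher and 37.2% lower). With siMESH1-7002 both lists had smaller shares called than all genes (26.6% higher and 26.7% lower). Of 14 measured complex I assembly factors, 5 were higher and 5 lower with siMESH1-CDS, from NUBPL, which delivers iron-sulfur clusters (1.31, or 0.74 after the GC correction), to FOXRED1 (-4.28, or -2.52), and 1 was higher and 3 lower with siMESH1-7002, NDUFAF7 at 0.24 and NDUFAF5 at -0.46 being the extremes. Of 29 measured assembly factors of complexes II to V, 11 were higher and 8 lower with siMESH1-CDS, from COA5 (1.32, or 1.39 after the GC correction) to the copper chaperone SCO2 (-5.37, or -1.88), and 4 were higher and 4 lower with siMESH1-7002, from COX20 (0.55) to ATPAF1. ATPAF1, a chaperone of the F1 head, was opposed between the siRNAs. It was at 73.7, 75.9 and 77.0 CPM with siNT and at 151, 148 and 140.3 CPM with siMESH1-CDS, but at 64.8, 70.0 and 71.9 CPM with siNT and at 34.0, 34.0 and 34.1 CPM with siMESH1-7002. It rose by 0.95 (edgeR adjusted p = 0.000353, 0.48 after the GC correction) and fell by 1.02 (edgeR adjusted p = 1.94e-10), a difference of 1.82 (SE 0.0949, edgeR adjusted p = 4.75e-07). The 3′UTR of ATPAF1 holds 1 match to the siMESH1-7002 seed. Those of the assembly factors TMEM126B and COA5, not called with siMESH1-7002, hold matches too, and what the matches do was not tested.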

How the data were processed

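Total RNA from RCC4 cells was made into stranded mRNA libraries and sequenced, with 3 biological replicates in each of 4 groups. Per the submitters' processing notes, the authors checked reads with FastQC, aligned them to hg19 with HISAT2 and counted reads per gene symbol with HTSeq; versions, gene annotation and the strand option are not given in the sources used here. The deposited counts are raw counts of reads per gene in each library. The authors' DESeq2 tables, which hold their own mean normalized counts, fold changes and p-values, were not used.

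HTSeq's tallies of reads assigned to no gene did not enter the library sizes or the tests; their shares are given with the results. Each experiment was fitted on its own 6 libraries in R 4.3.3 with edgeR 4.0.16 (filterByExpr, TMM scaling, glmQLFit and glmQLFTest), with Benjamini-Hochberg adjustment over all genes tested, and a gene was called at an adjusted p under 0.05. The difference between the siRNAs is the change with siMESH1-CDS minus that with siMESH1-7002 in a fit of all 12 libraries. CPM use TMM-scaled library sizes. GC content and length are the median over a gene's protein-coding transcripts in GENCODE 29 (GRCh38), and coordinates are from the same annotation. The GC correction subtracts a lowess fit (span 0.3) of log2 CPM (prior count 1) on GC content in each library. Scripts were tested on simulated data; DESeq2 1.42.0 was an alternative.

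Subunits were assigned to complexes and roles from general knowledge. In each experiment and complex the called subunits with the largest changes (up to 3 in each direction), NDUFA5, the 4 SDH genes, subunits called the same way with both siRNAs in both fits (up to 4 per complex) and paralog isoforms over 1 CPM were named; other subunits were named after their values were seen. The members and lists were chosen with earlier results of these data known. Intervals of reads cover counting error only. A gene that enters the counts is not reported here by itself.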

Additional observations from a re-analysis of the deposited data

Results flagged for a closer look

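In 29 of the 38 genes named by rule, the changes with the 2 siRNAs differed by the edgeR test of the difference itself (adjusted p under 0.05). Many of them were named for large changes in these same data. Of all 14154 genes tested, 30.0% were called higher and 39.7% lower in this difference. After the GC correction it was no longer called for NDUFS1, NDUFA5, UQCR11, COX7B, ATP5C1, ATP5F1, ATP5H and ATP5I. The values below are the log2 change with siMESH1-CDS minus that with siMESH1-7002, without that correction. In complex I the difference was -6.83 for NDUFA13, -5.89 for NDUFA11, -5.34 for NDUFS8, -2.65 for NDUFS6, -0.31 for NDUFA9, 0.47 for NDUFS1, 0.81 for NDUFA5, 1.11 for NDUFC1 and 1.19 for NDUFB5. In complex II it was -1.87 for SDHA, 0.43 for SDHC and 1.54 for SDHD. In complex III it was -3.68 for UQCRC1, -2.37 for UQCR11, -1.77 for UQCRQ and 1.47 for UQCRB. In complex IV it was -3.73 for COX8A, -3.64 for COX4I1 and 0.41 for COX7B, and for the isoform NDUFA4L2 it was -5.79. In complex V it was -8.67 for ATP5E, which had no reads with siMESH1-CDS and whose value depends on the prior count, -6.55 for ATP5D, -3.90 for ATP5G2, -2.59 for ATP5G1, -1.28 for ATP5I, 0.47 for ATP5H, 0.55 for ATP5C1, 0.59 for ATP5F1 and 0.78 for ATP5J.

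Reads that HTSeq placed outside genes, which enter no comparison, made up at least 18.4% of the reads in each siMESH1-CDS library, above each of its siNT libraries. What those reads are was not tested.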

How the results depend on the processing

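Of the values of 38 named genes under each alternative, 516 kept direction and call with siMESH1-CDS, 56 lost the call, 13 gained one and 15 reversed; with siMESH1-7002 526 kept both, 34 lost the call and 10 gained one. The members called lower with siMESH1-CDS were 39, 21 at an adjusted p under 0.01, and 23 to 45 when one library was left out; those called higher were 16 to 23. With siMESH1-7002 the 5 higher became 12 after the GC correction, 9 after GC and length correction, 1 with all 12 libraries in 1 model, 3 at an adjusted p under 0.01 and 3 to 7 when one library was left out; the 27 lower became 5 in 1 model and 20 to 41. Over all genes 1 model cut the calls with siMESH1-7002 from 7235 to 2582.

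Median changes with siMESH1-CDS moved as follows. Complex I went to -0.58 with at least 10 reads in every library and to -0.54 with GC and length. Complex II went to -0.10 by library size, -0.02 with at least 10 reads, 0.08 with GC, 0.10 with GC and length and 0.01 in 1 model. Complex III went to -0.76 with GC and -0.78 with GC and length. Complex IV went to -0.02 with DESeq2 and with its size factors, -0.24 by library size, -0.16 with at least 10 reads, -0.46 with GC, -0.45 with GC and length, -0.13 in 1 model and -0.05 to 0.06 when one library was left out. Complex V went to -0.74 by library size. With siMESH1-7002 complex I went to -0.02 with GC, -0.04 with GC and length and -0.13 to -0.06 with one library left out; complex II to -0.20 and -0.20; complex III to 0.02, 0.00 and -0.10 to -0.02; and complex V to -0.04 and -0.06.

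These siMESH1-CDS values reversed with GC and with GC and length: ATP5F1 (-0.15, -0.17), ATP5I (0.11, 0.02), COX6C (-0.54, -0.48), COX7B (-0.17, -0.14), NDUFA4 (-0.46, -0.48) and NDUFS1 (-0.35, -0.38, and -0.04 by library size). UQCR11 went to 0.05 with GC and length, and UQCRFS1 ranged from -0.30 to 0.25 with one library left out (0.25 without siMESH1-CDS replicate 2). The cause was not tested.

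Same-numbered replicates did not deviate together (correlations of -0.05, 0.22 and 0.13 in experiment 1 and -0.06, 0.04 and -0.08 in experiment 2), so the number was not taken as a pairing. With a replicate block 17 members were higher and 38 lower with siMESH1-CDS, 5 and 25 with siMESH1-7002, and 18 and 40 in the difference.

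Depth limits the low end: ATP5D, ATP5E and NDUFS7 rest on at most 5 reads per siMESH1-CDS library. The wide spread of experiment 1 left changes such as that of COX6B1 uncalled.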

Other observations

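Genes that feed or build the respiratory chain from outside its complexes were called in both directions with siMESH1-CDS. Of all genes 36.9% were higher and 37.2% lower with it, and 39.9% and 26.8% after the GC correction. In each fit both lists below had a larger share lower and a smaller share higher than all genes, though they hold few genes. Of 13 enzymes of the tricarboxylic acid cycle, which feeds the chain with NADH and succinate, 2 were higher and 7 lower with siMESH1-CDS, and 1 higher and 9 lower after the GC correction. The values ranged from DLD, a subunit shared by the 2-oxoacid dehydrogenases (log2 change 1.57, or 0.76 after the correction), to IDH3G, a regulatory subunit of isocitrate dehydrogenase (-5.12, or -2.47). With siMESH1-7002 0 were higher and 4 lower by edgeR, against 26.6% and 26.7% of all genes, and the correction made that 4 higher and 4 lower. The largest fall was by 0.53 for IDH3A, the catalytic subunit of isocitrate dehydrogenase.

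Of 12 measured genes of mitochondrial transcription and biogenesis, 4 were higher and 5 lower with siMESH1-CDS, and 3 higher and 7 lower after the GC correction. They ranged from the coactivator PPARGC1A (2.28, or 1.92 after the correction) to the mitochondrial RNA polymerase POLRMT (-6.08, or -2.40). With siMESH1-7002 3 were higher and 3 lower, and 4 and 4 after the correction, from the elongation factor TEFM (0.35) to PPARGC1B (-0.38).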
